A study of Arabidopsis thaliana with 72 samples.

Results

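Pseudouridine (Ψ) was listed at 549 nuclear uridines that stood between a G and a C, of 8275 Ψ sites on chromosomes 1 to 5 and 8512 sites in all. These GΨC sites were taken from the authors' site list by the bases directly before and after the modified U, and no measured level entered the choice. The series covered wild-type Col-0 *Arabidopsis thaliana*, with 56 bisulfite-treated and 16 input libraries from 9 tissues: seedling (7 days), shoot and root (14 days), rosetta leaf (30 days), and cauline leaf, flower, stem and silique of flowering plants, with mature dried seed. Plants grew on 1/2 MS plates or after transfer to soil at 20 °C, none was mutant or treated, and every library came from poly(A)-enriched RNA. The replicates of a tissue had been combined before deposition, so each site had 1 fraction per tissue, with no spread between libraries and no read depth.

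Ψ is an isomer of uridine in which the base is joined to the sugar through a carbon. It is made after transcription by pseudouridine synthases, which either recognise the sequence and fold around a U themselves or are led to it by a guide RNA. In BID-seq, bisulfite adds to Ψ and reverse transcriptase then skips the base, so that Ψ appears as a deletion in the reads. A U flanked by G and C has no neighbouring U, so a deletion of this U has a single placement in the read.

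Most of the GΨC sites lay in the coding sequence of nuclear mRNA. Of the 549 sites, 530 were in protein-coding genes, 5 in snRNA, 3 in lncRNA, 3 in misc_RNA, 2 in snoRNA, 2 in rRNA, 1 in tRNA and 1 in another ncRNA gene, and 2 lay in no annotated gene. They fell in 518 genes, of which 492 held 1 site, 23 held 2 and 3 held 3. Chromosome 1 carried 150 of them, chromosome 2 had 82, chromosome 3 had 114, chromosome 4 had 79 and chromosome 5 had 124. The 31-base window around the U occurred once in the genome for 531 of the 549.

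The windows below are those of the sites that the results turn on, namely sites called in most tissues, a site with a value in 1 tissue, a pair in 1 gene, a tandem repeat and a family of U1 snRNA genes. They are 21 bases of the RefSeq TAIR10.1 genome, read 5′ to 3′ on the strand of the transcript, with T for U and the G-U-C triplet in capitals.
cpHsc70-1, chr4:12593313-12593333, plus strand: gagctggagGTCcaggtgcag
TIC, chr3:7913372-7913392, plus strand: aggaggaagGTCcggtggagt
ATP3, chr2:14019834-14019854, minus strand: tcattgcagGTCctgaaaagg
AT4G27450, chr4:13728620-13728640, minus strand: aactcaacaGTCcggcatctg
AT1G13930, first site, chr1:4761440-4761460, plus strand: ctccgacgaGTCaggctgagc
AT1G13930, second site, chr1:4761458-4761478, plus strand: agccagcaaGTCagcctgagc
DCL2, chr3:770759-770779, minus strand: ccagagctaGTCtcccagttt
AT2G04170, chr2:1419015-1419035, minus strand: gtccaggagGTCctggttttg
AT2G04170, chr2:1419036-1419056, minus strand: gcccaggagGTCctggttttg
U1.2, chr4:12225698-12225718, plus strand: tagcttaagGTCttcccttgt
U1.5, chr1:2538134-2538154, minus strand: atgcttaagGTCttcccttga
U1.7, chr3:1657844-1657864, plus strand: atgcttaagGTCttccctaga
The U of ATP3 is the second base of an exon, so the letters before its capitals are intron sequence. The first 3 of these windows share AGGUCC, with the U at the last position of a GGU glycine codon. AT4G27450 and both sites of AT1G13930 share AGUC, with the U at the last position of an AGU serine codon.

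A site is termed called in a tissue where it had passed the authors' P value-based filter, whose threshold their methods do not state. Of the 549 GΨC sites, 534 were called in at least 1 tissue (97.3%), against 97.5% of all nuclear sites, and 15 were called in none. Root had 206 called GΨC sites (37.5% of the 549, against 31.7% of all nuclear sites), flower 135 (24.6%, against 29.1%), seedling 121 (22.0%, against 25.8%) and stem 116 (21.1%, against 23.5%). Seed had 112 (20.4%, against 17.9%), shoot 96 (17.5%, against 21.9%), cauline leaf 95 (17.3%, against 18.3%), rosetta leaf 90 (16.4%, against 19.4%) and silique 86 (15.7%, against 19.3%). Root and seed were thus the tissues in which the share of GΨC sites called was above that of all nuclear sites.

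Read the other way, GΨC made up 7.85% of the called sites of root (95% Wilson interval 6.88 to 8.94) and 7.56% of those of seed (6.32 to 9.02). In the other 7 tissues this share lay between 5.29% in shoot (4.35 to 6.42) and 6.27% in cauline leaf (5.15 to 7.60). The interval of root did not overlap those of shoot, flower (4.75 to 6.59), seedling (4.77 to 6.74), silique (4.38 to 6.61) and rosetta leaf (4.58 to 6.83), and that of seed overlapped those of all the other tissues. These intervals cover the counting of sites only. With called sites of at least 0.1 alone the share was 6.83% in root and 5.40% in seed, and from 4.22% in flower to 5.09% in stem over the other 7 tissues. Median host expression of the called GΨC sites was 257 TPM in seed and 102 TPM in root, against 134 TPM in seed and 117 TPM in root for the other called sites, and its part in these shares was not tested.

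Most GΨC sites were called in a single tissue. This held for 329 of the 549 (59.9%, 55.8 to 63.9), against 58.6% of all nuclear sites. By tissue, 104 were called only in root (18.9% of the 549, against 13.8% of all nuclear sites) and 61 only in seed (11.1%, against 8.47%). A further 35 were called only in flower (6.38%, against 8.4%), 35 only in stem (6.38%, against 4.94%), 22 only in silique (4.01%, against 4.45%) and 20 only in seedling (3.64%, against 5.68%). Rosetta leaf alone had 20 (3.64%, against 4.63%), cauline leaf 18 (3.28%, against 3.69%) and shoot 14 (2.55%, against 4.5%). At the other end, 48 were called in 5 or more tissues (8.74%, against 11.7% of all nuclear sites) and 4 in each of the 9 (0.729%, 0.284 to 1.86), against 1.28% of all nuclear sites. Among the sites called in a tissue, the share called nowhere else averaged 28.8% for GΨC sites and 27.7% for other sites, a mean difference of 1.05 percentage points (SD 6.08, n = 9 tissues) that was positive in 4 of 9 tissues (exact two-sided sign-flip permutation test, p = 0.605).

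Called GΨC sites were mostly modified at a low level. Over all 1057 site and tissue calls the median fraction was 0.122 (quartiles 0.0702 and 0.230), the lowest 0.0192 and the highest 0.979. A fraction under 0.2 was given for 70.5% of these calls, against 60.0% of the 16072 calls at other sites, and a fraction above 0.5 for 7.28%, against 12.9%. By tissue the median ran from 0.108 in seedling and seed to 0.1497 in shoot.

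**Figure D1:**
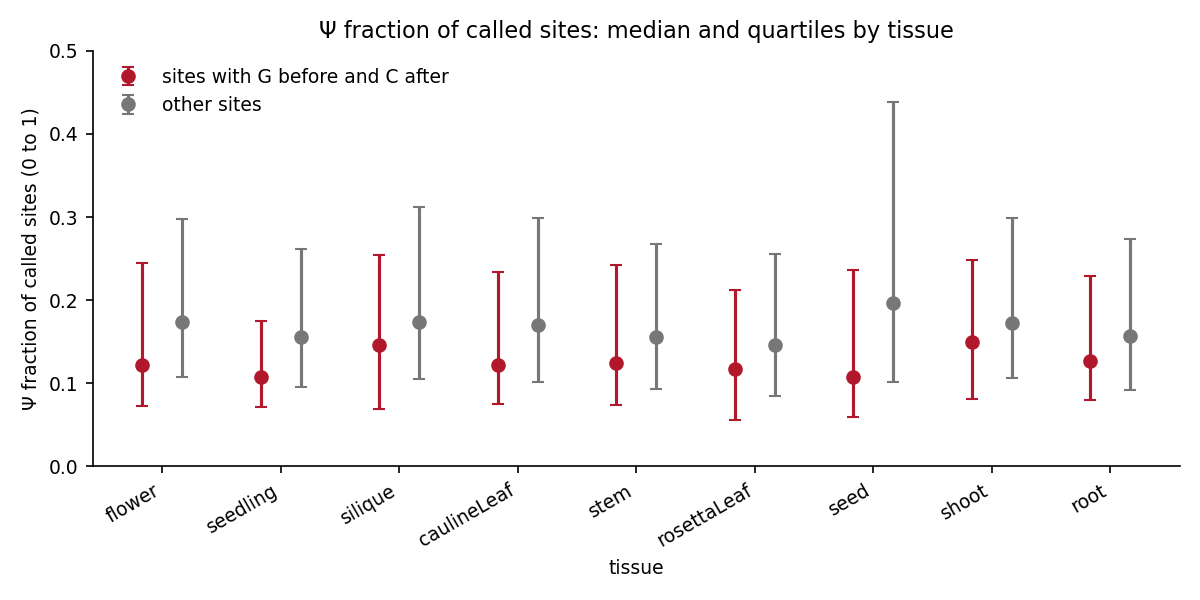
Ψ fraction (0 to 1) of called sites in each of the 9 tissues, with points for medians and bars for quartiles, GΨC sites in red and the other nuclear sites in grey. The red point lies below the grey one in every tissue, and the gap is widest in seed (0.108 against 0.197).

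The median of GΨC sites was below that of the other called sites in 9 of 9 tissues, with a mean of the tissue medians of 0.125 for GΨC and 0.167 for other sites. The mean difference was -0.0417 (SD 0.0206, n = 9 tissues), with an adjusted p of 0.00586 by the exact two-sided sign-flip permutation test over tissues, whose smallest possible p was 0.00391. The difference ran from -0.0888 in seed to -0.0233 in shoot. The tissues share sites, so this p speaks to the repeatability over the 9 columns and not to separate plants. With called sites of at least 0.1 alone, the mean difference was -0.0109 (adjusted p = 0.0984, exact permutation test).

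Against the nearest motif classes, GΨC sites stood between UΨC and GΨG. Their tissue medians were lower than those of UΨC by -0.135 on average (SD 0.0280) and lower than those of CΨC by -0.0435 (SD 0.0149), each in 9 of 9 tissues (n = 9, adjusted p = 0.00586 for each, exact permutation test). They were higher than those of GΨG by 0.0459 (SD 0.0110) in 9 of 9 tissues (adjusted p = 0.00586, exact permutation test). Against AΨC the mean difference was 0.00223 (SD 0.0207, from -0.0309 to 0.0247) and against GΨA 0.00274 (SD 0.0432, from -0.0865 to 0.0413), each positive in 6 of 9 tissues (adjusted p = 0.859 for both, exact permutation test). With called sites of at least 0.1 alone, the difference from CΨC turned to 0.0213 (adjusted p = 0.0117) and that from GΨA to -0.271 (adjusted p = 0.00781, exact permutation tests). With means in place of medians, the difference from CΨC was -0.00792, positive in 5 of 9 tissues and no longer past the threshold (adjusted p = 0.199), and that from GΨA was -0.0976, negative in 9 of 9 (adjusted p = 0.00586, exact permutation tests). The difference from GΨG was 0.0213 with host genes of at least 100 TPM, a setting added after the data were seen.

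Many GΨA sites lay at splice donors, where introns open with GU, and the reason was not tested. Within 5 bases of an annotated exon boundary were 18 of 549 GΨC sites (3.28%), against 250 of 605 GΨA sites (41.3%) and 9.11% of all other nuclear sites. The second base of an annotated intron was the site for 7 GΨC (1.28%), 27 GΨG (3.77%) and 191 GΨA sites (31.6%). Among sites over 5 bases from a boundary, a setting added after the data were seen, GΨC was higher than GΨA by 0.0550 on average, in 8 of 9 tissues (adjusted p = 0.00938, exact permutation test), and lower than all other sites by -0.0398 in 9 of 9 (adjusted p = 0.00586, exact permutation test).

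The base before the G went with the level of GΨC sites. Sites with AGΨC had a mean tissue median of 0.295, against 0.104 for the sites with another base there, a difference of 0.191 (SD 0.0699) with the same sign in 9 of 9 tissues (adjusted p = 0.00625, exact two-sided permutation test, n = 9). The AGΨC medians rest on few called sites, from 13 in shoot and in rosetta leaf to 34 in root. Among them are the sites of AT4G27450 and AT1G13930, each called in 8 tissues, so the tissues partly read the same sites. Sites with GGΨC were lower, 0.0960 against 0.173 (difference -0.0775, SD 0.0243, 9 of 9 tissues, adjusted p = 0.00625, exact permutation test). UGΨC sites had 0.113 against 0.128 (difference -0.0154, lower in 7 of 9 tissues, adjusted p = 0.0365, exact permutation test), and CGΨC sites 0.135 against 0.123 (difference 0.0116, adjusted p = 0.223, exact permutation test). The difference for AGΨC was 0.190 among sites over 5 bases from an exon boundary and 0.158 among sites in host genes of at least 100 TPM, settings added after the data were seen, and with such hosts that for GGΨC was -0.0233. With called sites of at least 0.1 alone UGΨC differed by 0.00105 (adjusted p = 0.898, exact permutation test), so its call was lost. With means CGΨC was lower by -0.0342, in 8 of 9 tissues, and passed the threshold (adjusted p = 0.0134, exact permutation test).

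**Figure D2:**
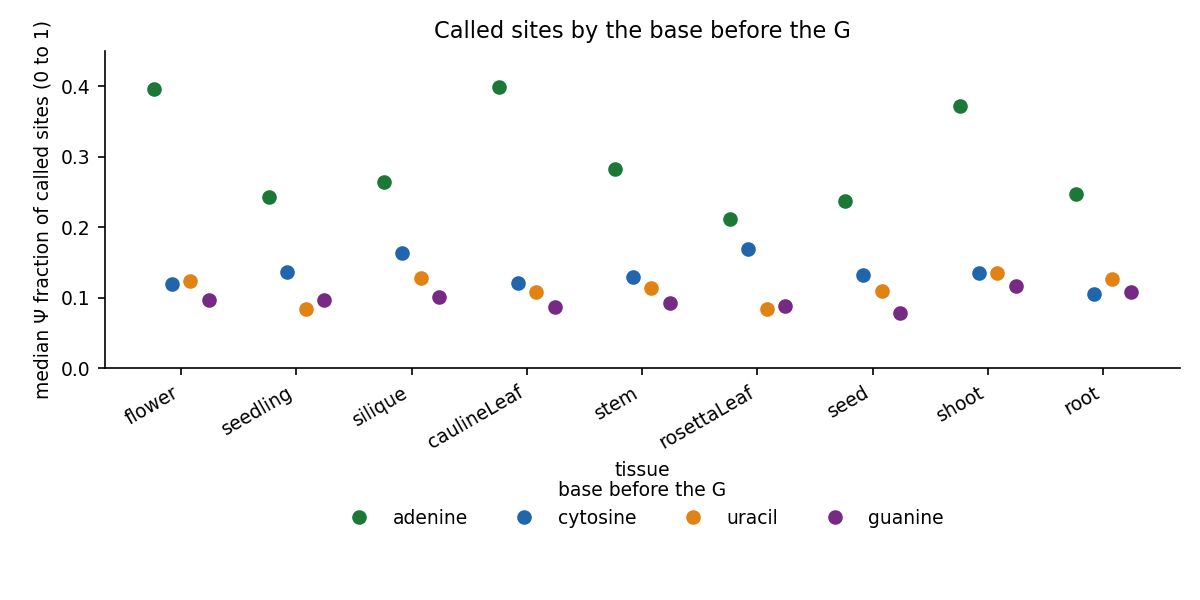
Median Ψ fraction (0 to 1) of the GΨC sites called in each tissue, by the base before the G, with 1 point per base and tissue. The sites with adenine there have the highest median in each of the 9 tissues, from 0.212 in rosetta leaf to 0.399 in cauline leaf, and those with guanine range from 0.0779 in seed to 0.117 in shoot.

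The base after the C went with the level too. GΨCA sites had a mean tissue median of 0.242, against 0.118 for the other GΨC sites (difference 0.124, SD 0.0755), and GΨCC sites 0.195 against 0.103 (difference 0.0923, SD 0.0363), both higher in 9 of 9 tissues (n = 9, adjusted p = 0.00625 for each, exact permutation test). The GΨCA medians rest on few called sites, from 5 in cauline leaf and 6 in silique and in rosetta leaf to 28 in root. Among them are the 2 sites of AT1G13930, each called in 8 tissues. GΨCU sites were lower in 9 of 9 tissues, 0.0714 against 0.166 (difference -0.0949, SD 0.0254, adjusted p = 0.00625, exact permutation test). GΨCG sites had 0.143 against 0.119 (difference 0.0241, higher in 7 of 9 tissues, adjusted p = 0.0670, exact permutation test). With called sites of at least 0.1 alone the differences were 0.105 for GΨCA (adjusted p = 0.0625) and 0.0347 for GΨCC (adjusted p = 0.125), both exact permutation tests. GΨCG passed the threshold without seed (0.0292) and with host genes of at least 100 TPM (0.00810; adjusted p = 0.0357 for each, exact permutation tests), and GΨCU was -0.0482 with such hosts.

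How often a G-U-C triplet was called followed another order of bases than the level did. In the coding sequence of 4402 genes with a mean of at least 50 TPM, 278 of 56152 G-U-C triplets held a called site, 4.95 per 1000 (4.40 to 5.57). By the base before the G the rate was 10.1 per 1000 for GGUC, 4.10 for UGUC, 2.96 for AGUC and 2.42 for CGUC. By the base after the C it was 8.997 for GUCG, 5.97 for GUCC, 5.29 for GUCU and 1.14 for GUCA. The widest spread was at the next base, with 16.1 per 1000 for GUCNG (13.9 to 18.7), 4.13 for GUCNC (3.17 to 5.37), 1.66 for GUCNU (1.15 to 2.40) and 1.44 for GUCNA (0.953 to 2.18). Of all 549 GΨC sites 56.3% read GUCNG, against 47.2% of the other nuclear sites with G at that place.

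**Figure D3:**
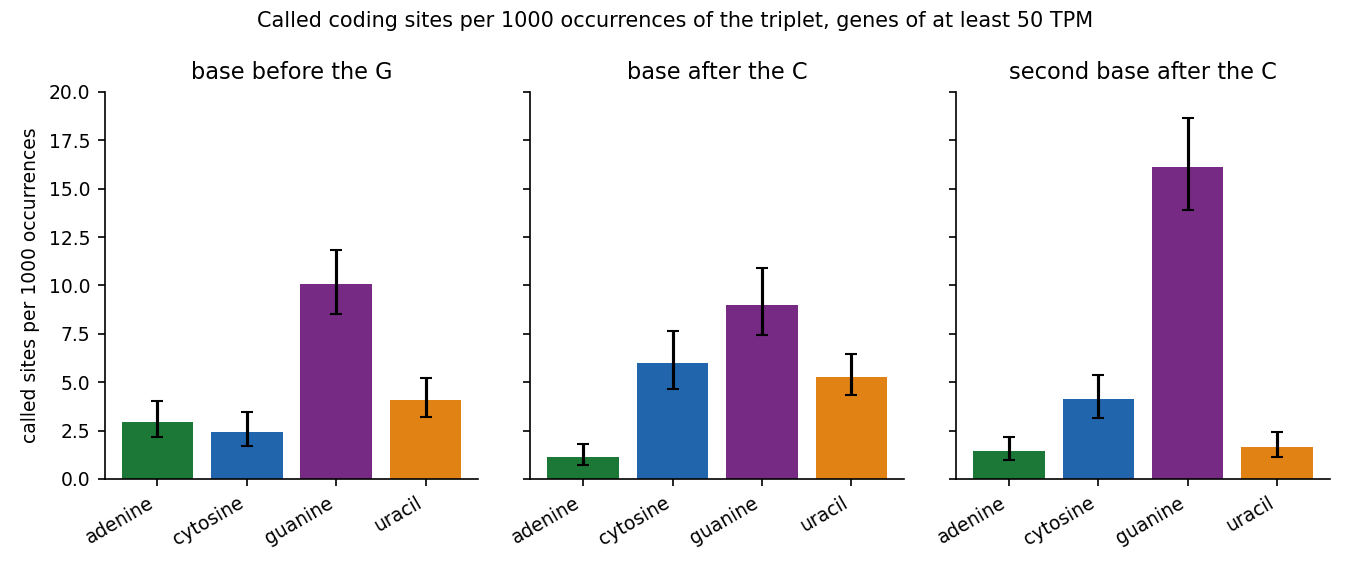
Called GΨC coding sites per 1000 occurrences of G-U-C in the coding sequence of 4402 genes of at least 50 TPM, by the base at each of 3 neighbouring places, with 95% Wilson intervals as bars. Guanine has the highest rate at each place, and the highest bar is guanine as the second base after the C (16.1 per 1000).

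Several of the windows called most often had low levels. The single most frequent window of 7 bases was GGGUCGG, called at 28 coding sites and at 21 of its 175 occurrences in the genes of at least 50 TPM (120 per 1000, 79.8 to 176), with a median fraction of 0.0746. UGGUCUG followed with 23 coding sites (median 0.0620), then AGGUCUG with 19 (0.0672) and AUGUCUG with 19 (0.0652). AGUC, by contrast, was called at 75 coding sites with a median of 0.285, and AGUCC at 13 with a median of 0.546. These medians by window were taken over calls, so a site counted in each tissue where it was called. Among the AGUCC calls, 8 came from AT4G27450 and 6 from AT4G14160. Median host expression of the calls was 216 TPM for GGGUCGG and 145 TPM for GGUC, against 105 TPM for AGUC and 81.0 TPM for AGUCC, and its part in these levels was not tested. These counts by window were described after their values were seen.

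Among the 517 GΨC sites in exons of protein-coding genes, the CDS held 477 (92.3%, 89.6 to 94.3), the 3′ UTR 24 (4.64%, 3.14 to 6.81) and the 5′ UTR 16 (3.09%, 1.91 to 4.97). Of the other nuclear sites in exons, the CDS held 85.5%, the 3′ UTR 9.86% and the 5′ UTR 4.61%. In the 4 tissues with at least 5 called 3′ UTR sites, their median was 0.0611, against 0.121 for CDS sites, lower in 4 of 4 (difference -0.0598, SD 0.0277, exact permutation p = 0.125, the smallest that 4 tissues allow).

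Within codons the U of GΨC sat at position 1 in 172 sites (36.1%), at position 2 in 135 (28.3%) and at position 3 in 170 (35.6%). The other nuclear CDS sites had 26.5%, 26.2% and 47.4% at these positions. Of the 463 called CDS sites, 133 were in the valine codon GUC, 117 in the glycine codon GGU, 74 in UCU, 53 in UCG and 28 in UCC (all serine), 20 in the cysteine codon UGU, 14 in the arginine codon CGU, 13 in the serine codon AGU and 11 in the serine codon UCA. Median fractions were taken over calls, so a site counted in each tissue where it was called. They were 0.114 for GUC and 0.0936 for GGU, while AGU had the highest at 0.417, followed by UCC at 0.227 and UCA at 0.222. Among the AGU calls, 16 came from the 2 sites of AT1G13930 and 8 from that of AT4G27450. Codon position 3 had a mean tissue median of 0.111, against 0.128 for the other positions (difference -0.0175, SD 0.0189, lower in 8 of 9 tissues, adjusted p = 0.0820), position 1 had 0.132 against 0.114 (difference 0.0176, adjusted p = 0.0996) and position 2 had 0.124 against 0.120 (difference 0.00420, adjusted p = 0.742; exact permutation tests, n = 9). Position 1 passed the threshold without seed (0.0231) and with the first transcript model of each gene (0.0222), as did position 3 with the first model (-0.0175; adjusted p = 0.0469 for each, exact permutation tests).

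In all, 13 GΨC sites (2.37%) lay in introns of the representative transcript, against 8.32% of the other nuclear sites. Apart from CAT3, those named here were chosen after their values were seen. Their mean fractions over tissues ran from 0.137 to 0.952 with a median of 0.373, against a median of 0.0633 over all 549 sites. The U was the second base of the intron in 6 of the 13, in STP1 (a sugar transporter), AT1G17200, CAT3 and CAT2 (catalases, which break down hydrogen peroxide), AT2G21530 and NIT1 (a nitrilase). MLO1 had 0.865 to 1 across the 9 tissues and was called only in root, at 0.979, with the U 6 bases beyond the end of an exon. The part of the exon boundary in these values was not tested.

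A call in all 9 tissues was given to 4 GΨC sites, listed first here. cpHsc70-1, a chaperone of the chloroplast stroma, was called in 9 of 9 tissues with fractions of 0.182 (shoot), a median of 0.267 and 0.302 (cauline leaf). TIC, TIME FOR COFFEE of the circadian clock, had 0.164 (seedling), a median of 0.195 and 0.256 (flower). ATP3, the gamma subunit of the mitochondrial ATP synthase, had 0.112 (silique), a median of 0.146 and 0.259 (seed). Host expression ran from 86.7 to 281 TPM for cpHsc70-1, from 40.6 to 119 TPM for TIC and from 73.4 to 299 TPM for ATP3. AT2G23120, a late embryogenesis abundant protein of group 6, was also called in all 9, at 0.0349 (shoot), a median of 0.0463 and 0.0856 (cauline leaf).

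The 5 highest mean fractions among the sites called in at least 5 tissues were in AGUC windows, with UGUC in AT3G04600 as the exception. AT4G27450, annotated as an aluminum induced protein, had 0.704 (rosetta leaf, where it was not called), a median of 0.768 and 0.851 (root). Its expression ran from 60.9 TPM in rosetta leaf to 901 TPM in cauline leaf, where the fractions were 0.704 and 0.768. AT1G13930, annotated as an oleosin-B3-like protein, held a pair of sites 18 bases apart. Its expression was lowest in seed (9.52 TPM), against 307 TPM (root) to 995 TPM (flower) elsewhere. The site at position 4761468 had 0.459 (seed, not called), a median of 0.520 and 0.545 (root), and that at 4761450 had 0.181 (stem), a median of 0.218 and 0.421 (seed, not called). The site at 4761450 was lower than its neighbour in each of the 9 tissues.

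AT4G14160, a Sec23/Sec24 protein of vesicle transport (chr4:8172743), was called in 6 tissues with 0.279 (rosetta leaf, not called), a median of 0.449 and 0.600 (root). AT3G04600, a nucleotidylyl transferase family protein (chr3:1243221), was called in 8 tissues with 0.111 (cauline leaf, not called), a median of 0.434 and 0.610 (shoot). GTR2, a glucosinolate transporter (chr5:25165929), was called in 7 with 0.172 (rosetta leaf, not called), a median of 0.382 and 0.448 (seedling). Over the 48 sites called in 5 or more tissues, the gap between the highest and lowest fraction had a median of 0.140 and ran from 0.0240 to 0.499.

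**Figure D4:**
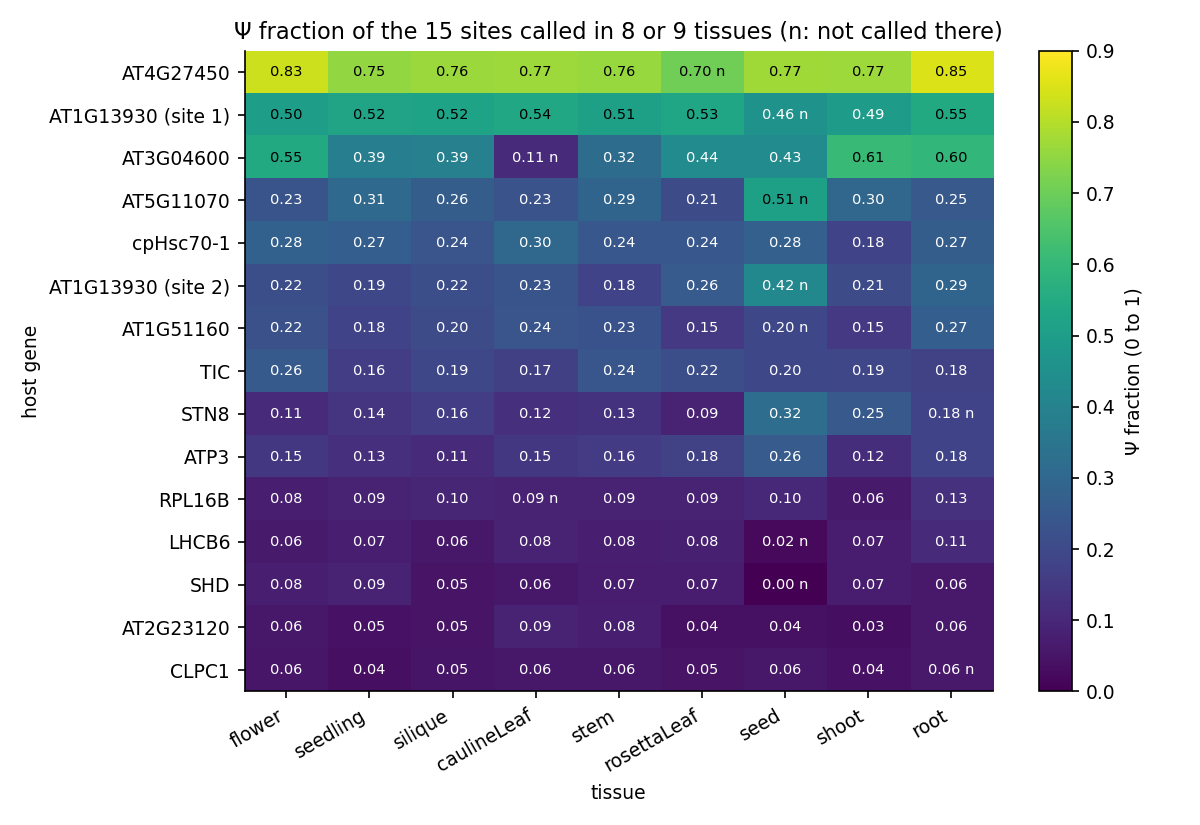
Ψ fraction (0 to 1, as colour and number) of the 15 GΨC sites called in 8 or 9 tissues, with 1 row per site, ordered by mean fraction, and 1 column per tissue. Cells marked n were not called there. AT4G27450 lies between 0.704 and 0.851, and CLPC1 at the foot between 0.0377 and 0.0617.

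In the genes with the most GΨC sites, the listed fractions differed between sites of 1 gene, though many of these values were not called. CAT3 had the U of a CGU codon at 7146169 with 0.0122 (root, not called), a median of 0.0183 and 0.0253 (stem), and the U of a GGU codon at 7144460, the second base of an exon, with 0.0231 (shoot, not called), a median of 0.0553 and 0.0851 (root). At 7146043 its U was the second base of an intron, with 0.342 (silique, not called) to 0.693 (root, the only call). BGAL1, a beta-galactosidase that acts on cell wall sugars, had medians of 0.0433, 0.0520 and 0.0847 at positions 4512374, 4513959 and 4514582, called in 1, 4 and 6 tissues. AT2G04170, a TRAF-like protein, had sites at 1419025, 1419046 and 1419067, each 21 bases apart in a tandem repeat whose windows differed by 1 base or none, so their reads share sequence. They were called only in root (0.246), in cauline leaf and root (0.309 and 0.141), and only in root (0.183), and each was listed at 0 in at least 4 tissues. Values that were not called exceeded those of root. They were 0.457 (flower) and 0.331 (seedling) at 1419025, 0.176 (rosetta leaf) at 1419046 and 0.331 (rosetta leaf) at 1419067.

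Abundant transcripts carried called GΨC sites at low fractions. LHB1B2, a light-harvesting chlorophyll-binding protein of photosystem II (chr2:14522990), was called in flower (0.0853) and seedling (0.0747) and had a median of 0.0628 over the 9 tissues. TCTP, the translationally controlled tumor protein, had its site in the 3′ UTR (chr3:5669680), at 0.0221 (shoot, not called) to 0.0466 (flower) with a median of 0.0253. RCA, which activates Rubisco (chr2:16571748), had 0.0260 (root) to 0.175 (seed), neither of them called, with a median of 0.0526. Across the called GΨC sites of a tissue, fraction and host TPM had a Spearman rho from -0.641 in seed to -0.496 in silique, and across the other called sites from -0.744 to -0.533. These are correlations across sites, which share the libraries and the filter and are not independent replicates. Within a site across the 9 tissues the median rho was 0.200 over 504 sites, and -0.0833 over the 203 with a fraction above 0 in each tissue.

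By host class, 12 GΨC sites lay in genes annotated as ribosomal protein (2.19%, against 3.16% of the other sites), with called fractions from 0.0238 to 0.127, and 7 of the 12 were called only in root, against 104 of all 549 GΨC sites and 13.8% of all nuclear sites. Photosystem, chlorophyll-binding or Rubisco genes held 5 (0.911%, against 2.23%), with called fractions from 0.0234 to 0.110. Kinase genes held 29 (5.28%, against 4.52%), with a median called fraction of 0.160 and a highest of 0.614. Heat shock genes held 5 (0.911%, against 0.764%) and seed storage, oleosin or late embryogenesis abundant genes 5 (0.911%, against 0.971%). The latter include the 2 sites of AT1G13930, whose expression was lowest in seed. Histone genes held 1, tubulin or actin genes 4, transcription factor genes 4 and genes annotated as pseudouridine synthase 0.

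Outside mRNA, 5 GΨC sites fell in U1 snRNA genes, U1.2, U1.4, U1.5, U1.6 and U1.7. U1 snRNA is the core of the spliceosome particle that pairs with the 5′ splice site. All 5 had the window AGGUCUU, and their 21-base windows differed from each other at 0 to 4 bases, so that reads of 1 gene may have been placed on another, and U1.6 and U1.7 could not be told apart. Over 20 calls the fraction ran from 0.0588 to 0.203 with a median of 0.108. U1.7 was called in 7 tissues, with 0.0598 (silique, not called), a median of 0.105 and 0.163 (seedling), and U1.6 in 6, with 0.0186 (rosetta leaf, not called), 0.0938 in stem and 0.148 (cauline leaf). These genes were singled out after their values were seen.

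The highest fractions outside mRNA and called in at least 2 tissues were in AT3G03175, a snoRNA gene (chr3:5387227), with 0.768 in flower, 0.834 in shoot and 0.904 in root, where it was called, and a listed 0 in cauline leaf, stem and rosetta leaf. It also had 0.812 in seedling, 0.762 in silique and 1 in seed, none of them called. The host expression of AT3G03175 was 0 to 14.6 TPM. AT3G06365, annotated as uncharacterized misc_RNA, had 0.506 (flower), 0.598 (seed) and 0.870 (shoot) at 14201353, and 0.761 in root at 14202316. Its sites lie on the plus strand of chromosome 3, as do those of the 18S rRNA gene AT3G41768. Whether AT3G06365 is itself rRNA was not examined. The 18S rRNA gene AT3G41768 had 0.748 (silique), 0.596 (seed) and 0.843 (root) at 14197896, with 0.239 in shoot, not called, as the lowest value, and 0.246 in seed at 14197711. The 31-base windows in AT3G06365 and AT3G41768 each occurred at 2 places in the genome.

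Sites called in 1 tissue differed in whether the other tissues lacked a fraction or lacked a call. DCL2, a Dicer-like enzyme that makes small interfering RNAs, had 0.516 in silique and was listed at 0 in the other 8 tissues, with host expression of 8.55 TPM in silique, against 7.65 TPM (rosetta leaf) to 15.02 TPM (root) elsewhere. AT2G35343, of unknown function, had 0.326 in seed, in the 3′ UTR (chr2:14879994), and was listed at 0 in the other 8. AT1G71210, a pentatricopeptide repeat protein (chr1:26840241), had 0.771 in cauline leaf, against 0.0664 to 0.409 elsewhere, at 3.07 to 15.6 TPM. AT5G57710, also named SMAX1, a regulator of seed germination and early growth (chr5:23385225), had 0.332 in stem, against 0 to 0.176 elsewhere. AT3G09035, a lectin family protein (chr3:2759276), had 0.343 in root, against 0 to 0.133 elsewhere.

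The widest gaps were smaller in the remaining tissues. AT1G09730, a cysteine proteinase family protein, had 0.429 in seedling, against a highest of 0.342 in flower. TADA, which edits a chloroplast arginine tRNA, had 0.252 in flower, against a highest of 0.151 in stem. AT3G05937 had 0.156 in shoot, against 0.0852 in stem, and AT5G42110 had 0.124 in rosetta leaf, against 0.104 in root. In each tissue, a share of the GΨC sites called only there had a fraction at least as high somewhere else. Among those whose host had been tested, these were 46 of 103 in root and 31 of 61 in seed. The share ran from 4 of 18 in cauline leaf to 13 of 20 in rosetta leaf. Other nuclear sites were not counted in this way, so it marks no trait of GΨC sites. A listed 0 cannot be told from too few reads, since the depth is unknown.

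The host genes of sites called in 1 tissue were often higher in that tissue. limma on log2(TPM + 1), with each tissue set against the mean of the other 8 and p-values adjusted over 25076 genes, called the host higher (adjusted p under 0.05 and a log2 difference of at least 1) for 188 of 326 GΨC sites (57.7%) and lower for 3. The lower hosts were 1 of 22 in silique (against 6.19% of all genes) and 2 of 103 in root (against 14.5%). The other sites called in 1 tissue had 2246 of 4408 (51.0%). In seed 51 of 61 hosts were higher (83.6%, against 77.5% of the hosts of other sites called only there and 12.3% of all genes), in rosetta leaf 18 of 20 (90.0%, against 56.6% and 9.76%) and in root 62 of 103 (60.2%, against 60.7% and 26.7%). The others were flower with 15 of 35 (42.9%, against 41.2% and 17.5%), stem with 15 of 33 (45.5%, against 41.1% and 10.7%), seedling with 10 of 20 (50.0%, against 32.8% and 12.5%), silique with 8 of 22 (36.4%, against 50.1% and 17.1%), shoot with 5 of 14 (35.7%, against 23.4% and 12.1%) and cauline leaf with 4 of 18 (22.2%, against 48.2% and 11.1%). The difference between hosts of GΨC and of other sites was not tested. Where the fraction also had to exceed that of every other tissue by 0.05, 22 of 71 hosts were higher. Hosts of other sites were not counted under this rule, so it marks no trait of GΨC hosts. Seed and rosetta leaf had 1 TPM column each and were taken to vary like the other tissues; over the 7 tissues with 2 columns 119 of 245 GΨC hosts were higher (48.6%), against 1566 of 3434 hosts of other sites (45.6%). More host RNA gives more reads at a site, and its part in the calls was not tested.

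**Figure D5:**
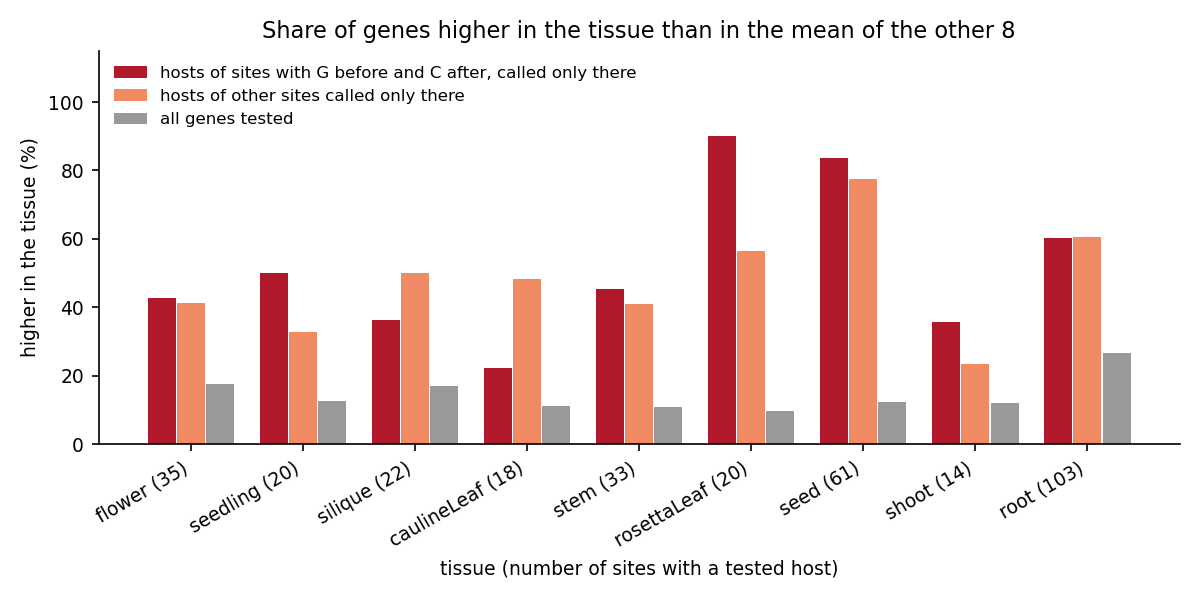
Percentage of genes higher in a tissue than in the mean of the other 8 (limma, adjusted p under 0.05, log2 difference of at least 1), for host genes of GΨC sites called only there (red), hosts of other sites called only there (orange) and all genes tested (grey). The red bars are highest in rosetta leaf (90.0%) and seed (83.6%), against 9.76% and 12.3% of all genes.

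In seed, 30 of the 61 hosts were higher by a log2 difference of at least 5. All genes and the hosts of other sites were not counted at this threshold, so it marks no trait of GΨC hosts. At a difference of at least 1, hosts of other sites called only in seed were also mostly higher, as given above. With 1 TPM column there, each SE and p in seed takes its spread from the other tissues. Among the leading ones, listed after their values were seen, was AT3G22490, a seed maturation protein (2002 TPM, against 0.859 to 6.71 TPM elsewhere, log2 difference 9.57 ± 0.70, SE, limma adjusted p = 7.95e-08), followed by AT3G53040, a late embryogenesis abundant protein (2399.6 TPM, against 0.937 to 10.4 TPM, 9.47 ± 0.50, adjusted p = 3.66e-09). SOM, a zinc finger repressor of light-dependent germination, had 1286 TPM, against 0.348 to 6.39 TPM. MLS, the malate synthase of the glyoxylate cycle, had 2044 TPM, against 0.940 to 19.0 TPM. TIP3;1, an aquaporin of the seed storage vacuole, LEA4-5 and HSP17.4, a small heat shock protein, had 3452, 3911 and 3498 TPM in seed.

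The GΨC sites of these seed transcripts were at 0.0458 in AT3G22490, 0.0482 in AT3G53040, 0.106 in SOM, 0.145 in MLS, 0.0545 in TIP3;1, 0.0468 in LEA4-5 and 0.0482 in HSP17.4. The median of all GΨC sites called in seed was 0.108, which MLS exceeded and SOM nearly reached. In SOM 7 of the other 8 tissues were listed at 0 and the remaining one had 0.746, not called. Likewise named after their values were seen were the following hosts in root and rosetta leaf. In root the leading one was AT3G21770, a peroxidase with a pair of sites at 0.0468 and 0.0810 (801 TPM, against 0.221 to 30.3 TPM, log2 difference 6.84 ± 0.07, SE, limma adjusted p = 2.79e-15). RBOHD, the NADPH oxidase of the respiratory burst, had a fraction of 0.151 in root and 381 TPM, against 15.6 to 78.4 TPM elsewhere. In rosetta leaf the hosts included LHB1B1, a light-harvesting protein (fraction 0.0711, 2452 TPM), and ATPD, the delta subunit of the chloroplast ATP synthase (fraction 0.0440, 1402 TPM).

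Marker genes were looked at for flower, seed, leaf, root and stem, and none was listed for seedling, shoot or silique. AP3, PI and AG, which specify floral organs, were highest in flower, IRT1 and NRT2.1, transporters of iron and nitrate, in root, and CESA4, CESA7 and CESA8, cellulose synthases of the secondary wall, in stem. CRA1 and OLEO1, a storage protein and an oil body protein, had 5226 and 6827 TPM in seed and 2189 and 2043 TPM in silique, which holds developing seeds, so sites in transcripts like these could be read in both. This does not extend to AT3G22490, AT3G53040, SOM and MLS, named above, whose TPM was far lower in every other tissue, silique included. RBCS1A and LHCB1.3, of photosynthesis, were highest in rosetta leaf (4298 and 5093 TPM), while cauline leaf had 1926 TPM of RBCS1A, close to the 2087 TPM of stem and 2059 TPM of silique. Pairs of TPM columns of a tissue had a correlation of log2 values from 0.992 to 0.996 over 25076 genes.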

How the data were processed

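BID-seq libraries (56 bisulfite-treated, 16 input) were made from poly(A)-enriched RNA of 9 tissues. The authors mapped reads to TAIR10 with their BID-seq pipeline, combined the replicates of a tissue, converted the gap ratio to Ψ with a calibration curve and deposited it as a fraction (0 to 1) per site and tissue, beside flags of their P value-based filter. Gene expression was deposited by the authors as TPM, in columns named by tissue and replicate number, with 1 column in seed and in rosetta leaf and 2 elsewhere, and was taken as that of the input libraries. The aligner and annotation behind the TPM are not given in the sources used here. Columns that belonged to no sample of the series numbered 0.

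Sites of chromosomes 1 to 5 with G at character 3 and C at character 5 of the 7-character motif, whose character 4 is the modified U, were taken as members. The motif matched the RefSeq TAIR10.1 genome, whose nuclear sequence is that of TAIR10, at 100% of sites on each of these chromosomes. Sites were placed in the transcript with the longest CDS, and copies were counted over 31-base windows.

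Fractions were compared over the 9 tissue columns by exact two-sided sign-flip permutation tests on differences of medians, with at least 5 called sites on each side, and adjusted by Benjamini-Hochberg within a family (6 motif, 8 context and 3 codon comparisons). Tissues share sites and are not independent. TPM was compared with limma 3.58.1 (R 4.3.3, trend) on log2(TPM + 1) over genes of at least 1 TPM in at least 2 columns. The authors speak of biological replicates without saying which plants each came from, so these p-values measure the spread between columns, which may be technical. Shares carry 95% Wilson intervals, which cover counting error only. Depth is unknown, since the fractions carry no read counts. Tests were tested on simulated data. Scripts ran in Python 3.11.15 with scipy 1.17.1 for the exact tests and pandas 2.3.3 for the tables.

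Members and lists were chosen with earlier results of these data known. Named sites were, by rule, the 6 called in the most tissues, for each tissue the one called only there with the widest gap, the 5 with the highest mean fraction among those called in at least 5 tissues, the 3 genes with the most sites, the 3 highest in non-coding genes called in at least 2 tissues, the 3 with the highest host TPM, and second sites of these genes. Others are marked as chosen after their values were seen. Alternatives were a minimum fraction of 0.1, all fractions above 0, means, leaving out seed, single-copy windows, protein-coding hosts, the first transcript model, a pseudocount of 0.1, other TPM filters, a gap of 0.05, the replicate block and each TPM column of the 7 tissues with 2 left out in turn. Distance from exon boundaries (5 bases) and hosts of at least 100 TPM were added after the data were seen. rRNA sites of total RNA, chloroplast and mitochondrial sites, and values per BID-seq library were not analysed here.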

Additional observations from a re-analysis of the deposited data

Results flagged for a closer look

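At codon position 3, the median fraction of called GΨC sites in root was 0.0218 above that of the other codon positions, whereas it was below them in each of the other 8 tissues. This difference between root and the other tissues was not tested.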

How the results depend on the processing

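Depth behind each fraction is unknown and the replicates of a tissue were pooled, so a low fraction, a listed 0 and a missing call cannot be separated. The exact tests ran over 9 columns that share sites.

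With called sites of at least 0.1 alone, GΨC minus other sites was -0.0109, minus CΨC 0.0213 (reversed) and minus GΨA -0.271 (reversed), CGΨC -0.0138 and UGΨC 0.00105 reversed, GΨCA 0.105, GΨCC 0.0347, GΨCG -0.00366 (reversed), codon position 2 -0.00456 (reversed), the GΨC share of called sites 5.21% and the GGΨC share of called GΨC sites 42.0%, against 6.62% and 47.9%. With all fractions above 0, GΨC minus AΨC was -0.00668, minus GΨA -0.00580 and CGΨC -0.00168, all reversed, codon position 2 was 0.00849, position 3 -0.00823 and 3′ UTR minus CDS -0.0240, past the threshold, and the mean rho with TPM was -0.376, against -0.588. With means, GΨC minus CΨC was -0.00792, minus AΨC -0.0236 and minus GΨA -0.0976, CGΨC -0.0342, GΨCG -0.00914 and codon position 2 -0.00698, all but the first reversed; the call against CΨC was lost.

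With single-copy windows GΨC minus GΨA was -0.00325 (reversed). Over 5 bases from an exon boundary GΨC minus AΨC was -0.00011 (reversed) and minus GΨA 0.0550, and with hosts of at least 100 TPM GΨC minus AΨC was -0.00610 (reversed) and GΨCG 0.00810. Without seed, GΨCG was 0.0292 and codon position 1 0.0231. With the first transcript model, codon position 1 was 0.0222, position 2 -0.00147 (reversed) and position 3 -0.0175. The cause of these changes was not tested. Where the fraction had to exceed every other tissue by 0.05, 22 hosts were higher, of 71 in place of 326, with hosts of other sites not counted.

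Leaving out in turn each of the 14 TPM columns of the 7 tissues with 2 gave 185 to 190 higher hosts. Seed and rosetta leaf, with 51 and 18 of the 188, have 1 column each and no such value. The replicate block gave 188, as without it, and changed no call count, and the numbers did not pair the columns: over 21 pairs of same-numbered columns the correlation of deviations ran from -0.0766 to 0.0932, with 0 over 0.1. Apart from the GΨC share of called sites in 6 single tissues at a minimum of 0.1 (4.22% to 6.83%), the other alternatives kept direction and side of the threshold, but some called values moved by over 1.5 times. With all fractions above 0, AGΨC was 0.101, GGΨC -0.0267, UGΨC -0.00626, GΨCA 0.0438, GΨCU -0.0448 and GΨC minus GΨG 0.0230. At a minimum of 0.1 GΨC minus UΨC was -0.0736 and GΨCU -0.0583. With means GΨC minus other sites was -0.0632 and UGΨC -0.0306. With hosts of at least 100 TPM GGΨC was -0.0233, GΨCU -0.0482 and GΨC minus GΨG 0.0213. 3′ UTR minus CDS, not called, was -0.0186 with the first transcript model (5 tissues).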
